A study of Mus musculus with 12 samples.

Results

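The genes of axon guidance examined here are the semaphorins, ephrins, netrins and Slits with their plexin, neuropilin, Eph, Unc5 and Robo receptors, chosen by gene symbol alone in RNA of 3T3-L1 cells. The symbols matched 64 of the 18255 genes listed over all libraries, of which 34 encode ligands and 29 encode receptors. The remaining match, Unc50, encodes a protein of the inner nuclear membrane and Golgi and is no netrin receptor, so it was counted apart. 3T3-L1 is an established mouse line of fibroblast-like preadipocytes that turn into fat cells under adipogenic hormones. The 12 libraries form 4 groups of 3. LIGHT is the protein product of Tnfsf14 and a cytokine of the tumour necrosis factor family, and LIGHT-Diff is the line overexpressing it, after differentiation into beige adipocytes, which are fat cells able to carry a heat-producing program. NC-Diff is the control line after the same differentiation, and LIGHT-Undiff and NC-Undiff are the LIGHT and control lines before it. Differentiated cells received insulin (5 µg/ml), rosiglitazone (1 µM), triiodothyronine (1 nM), IBMX (0.5 mM), dexamethasone (2 µg/ml) and indomethacin for 48 h, and the first 3 of these alone afterwards. The sources used here do not give the vector, its promoter, the number of clones behind a line or the day of harvest. Nor do the labels say whether replicates were grown as separate cultures, so the p-values rest on a spread that may be technical.

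Guidance ligands steer growing axons, blood vessels and migrating cells by attracting or repelling them. Semaphorins signal through plexins, and the secreted class 3 semaphorins mostly need a neuropilin as co-receptor, which also binds vascular endothelial growth factors. Ephrins are anchored in the cell membrane and bind Eph receptor kinases on a neighbouring cell, with signals passing both ways. Netrins bind Dcc, neogenin and the Unc5 receptors, and Slits bind Robo receptors. In fat, several of these ligands are known as signals between adipocytes, sympathetic nerves, vessels and macrophages.

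By Tnfsf14, 2 of the 12 libraries went against their labels. LIGHT-Diff held 0, 148 and 122 Tnfsf14 counts and NC-Diff held 113, 0 and 0, in the order of replicates 1 to 3 used throughout, while LIGHT-Undiff held 38, 53 and 58 and NC-Undiff 0, 1 and 0. The libraries labelled LIGHT-Diff 1 and NC-Diff 1 were kept under their labels, and the counts and every gene given library by library are also reported without them, over 10 libraries with 2 in each differentiated group. Libraries held 16334079 to 19686675 expected counts, so that 3 counts were worth 0.152 to 0.184 CPM (counts scaled to library size). Markers matched the labelled stage. The summed level of 6 adipocyte genes was 18159 to 27771 FPKM (fragments scaled to gene length and library total) in differentiated and 66.5 to 126 FPKM in undifferentiated libraries. Other cell types were at low levels, with 5 listed endothelial markers at 0.19 to 0.49 FPKM in all and Tie1 at 0 in every library. The sums were 1.22 to 4.26 FPKM for leukocyte markers, with Cd3e at 0, and 2.95 to 5.45 FPKM in differentiated against 0.86 to 1.90 FPKM in undifferentiated libraries for neural and Schwann cell markers, with Sox10 at 0 in undifferentiated ones. Preadipocyte and fibroblast markers summed to 3976 to 4399 FPKM in differentiated and 4637 to 5524 FPKM in undifferentiated libraries. The part of these cell type markers in the changes with differentiation was not tested.

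Guidance receptors together were lower after differentiation and ligands somewhat higher, in both lines. Summed over all receptors, the level was 156, 208 and 204 FPKM in LIGHT-Diff and 222, 155 and 157.3 FPKM in NC-Diff, against 245, 252 and 281 FPKM in LIGHT-Undiff and 281, 247 and 253 FPKM in NC-Undiff. No differentiated library reached an undifferentiated one. The library labelled NC-Diff 1 was the highest of the differentiated ones, and the library labelled LIGHT-Diff 1 lay with NC-Diff 2 and 3. Ligands summed to 128 ± 5.78 FPKM in LIGHT-Diff and 131 ± 3.66 FPKM in NC-Diff, against 109.6 ± 4.91 FPKM in LIGHT-Undiff and 112 ± 8.61 FPKM in NC-Undiff (SD, n = 3 each). The ligand sum without the 2 libraries averaged 127 FPKM in LIGHT-Diff and 132 FPKM in NC-Diff (n = 2 each). The ratio of receptors to ligands was 1.18, 1.58 and 1.68 in LIGHT-Diff and 1.74, 1.14 and 1.21 in NC-Diff, against 2.33, 2.32 and 2.44 in LIGHT-Undiff and 2.31, 2.28 and 2.40 in NC-Undiff. Fewer cells that express a gene and less of its RNA per cell cannot be told apart in these bulk samples. The sums are descriptions without a test, and the most abundant receptor, Plxnb2, made up 21.7% to 27.4% of a group's receptor sum.

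**Figure D1:**
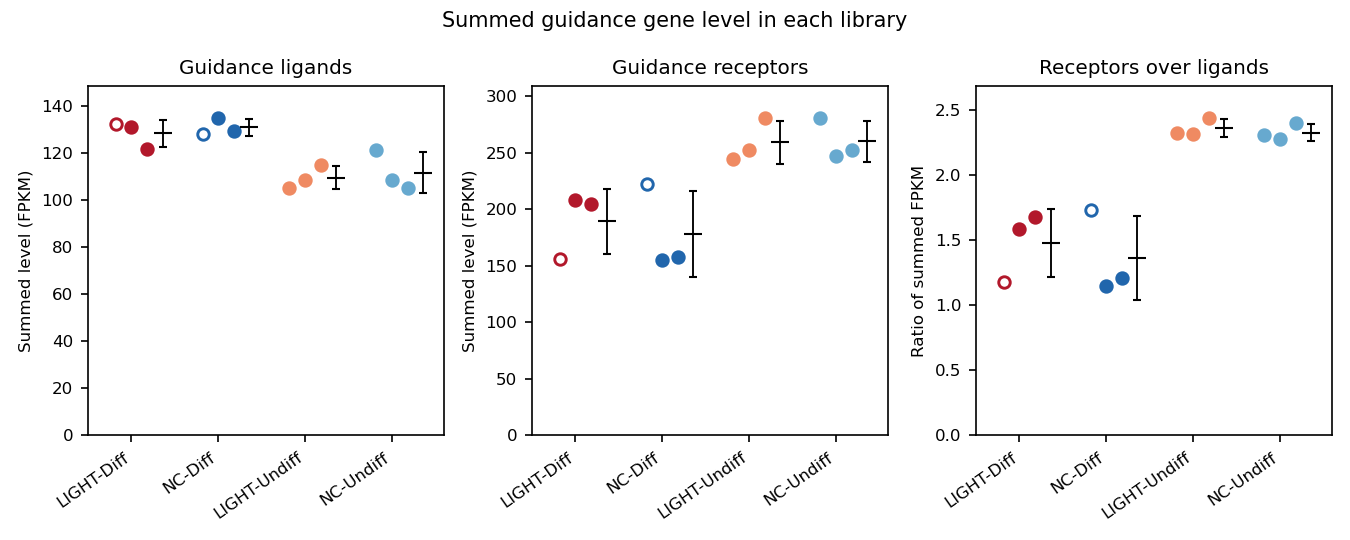
Summed FPKM of guidance ligands, of guidance receptors and their ratio in each library, by group. Points are libraries, open points are the libraries labelled LIGHT-Diff 1 and NC-Diff 1, and the cross-bar gives the mean ± SD of the 3 libraries; receptors lie at 155 to 222 FPKM in differentiated and 245 to 281 FPKM in undifferentiated libraries.

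Differentiation changed most guidance genes, and ligands and receptors differed in direction. In LIGHT-Diff against LIGHT-Undiff, 18 of the 48 guidance genes that passed the low-count filter rose and 17 fell at an adjusted p under 0.05, while 58.6% of all genes tested were called (29.5% higher, 29.1% lower). In NC-Diff against NC-Undiff 17 rose and 17 fell, with 63.9% of all genes called (32.2% higher, 31.7% lower). Among the 28 ligands tested, 15 rose and 6 fell in LIGHT cells (median log2 fold change 0.72) and 13 rose and 6 fell in NC cells (median 0.44). Among the 19 receptors tested, 2 rose and 11 fell in LIGHT cells (median -0.69) and 3 rose and 11 fell in NC cells (median -0.58). The receptors Plxnb3 and Robo3 and the ligand Sema6a are in these counts, though each passed the filter through libraries of a single stage. The tested ligands Ntn5, Sema4a, Sema6b, Efna2 and Efnb3 also passed only because of a single stage, reaching the cutoff in too few libraries of the other. The median over all genes tested was -0.0044 in LIGHT cells and 0.0005 in NC cells. The counts of all members include Unc50, which rose by 0.32 in LIGHT cells (adjusted p = 0.00389) and 0.22 in NC cells (adjusted p = 0.0282), the NC call being lost without any 1 of the NC-Undiff libraries, NC-Diff 2 or NC-Diff 3 (adjusted p from 0.0627 to 0.0847). Both lines shared 15 genes that rose and 15 that fell, and no gene was called in opposite directions.

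Without the 2 libraries more members were called, as were more genes overall. In LIGHT cells 23 rose and 19 fell, against 64.1% of all genes (32.3% higher, 31.9% lower), and in NC cells 18 rose and 24 fell, against 70.7% of all genes (35.8% higher, 34.9% lower). Ligands then counted 17 higher and 6 lower in LIGHT cells and 14 higher and 8 lower in NC cells, and receptors 5 higher and 13 lower in LIGHT cells and 3 higher and 16 lower in NC cells. Of the 35 calls in LIGHT cells and 34 in NC cells over 12 libraries, 34 and 34 were called in the same direction without the 2 libraries. The exception was Efnb3, a low ephrin with 6 to 17 counts in every library, whose call was also lost on leaving out any single library other than LIGHT-Diff 2 (adjusted p from 0.0552 to 0.141). Then 3 genes were called in opposite directions in the 2 lines, namely the ligand Sema3c and the receptors Plxnb1 and Nrp1.

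**Figure D2:**
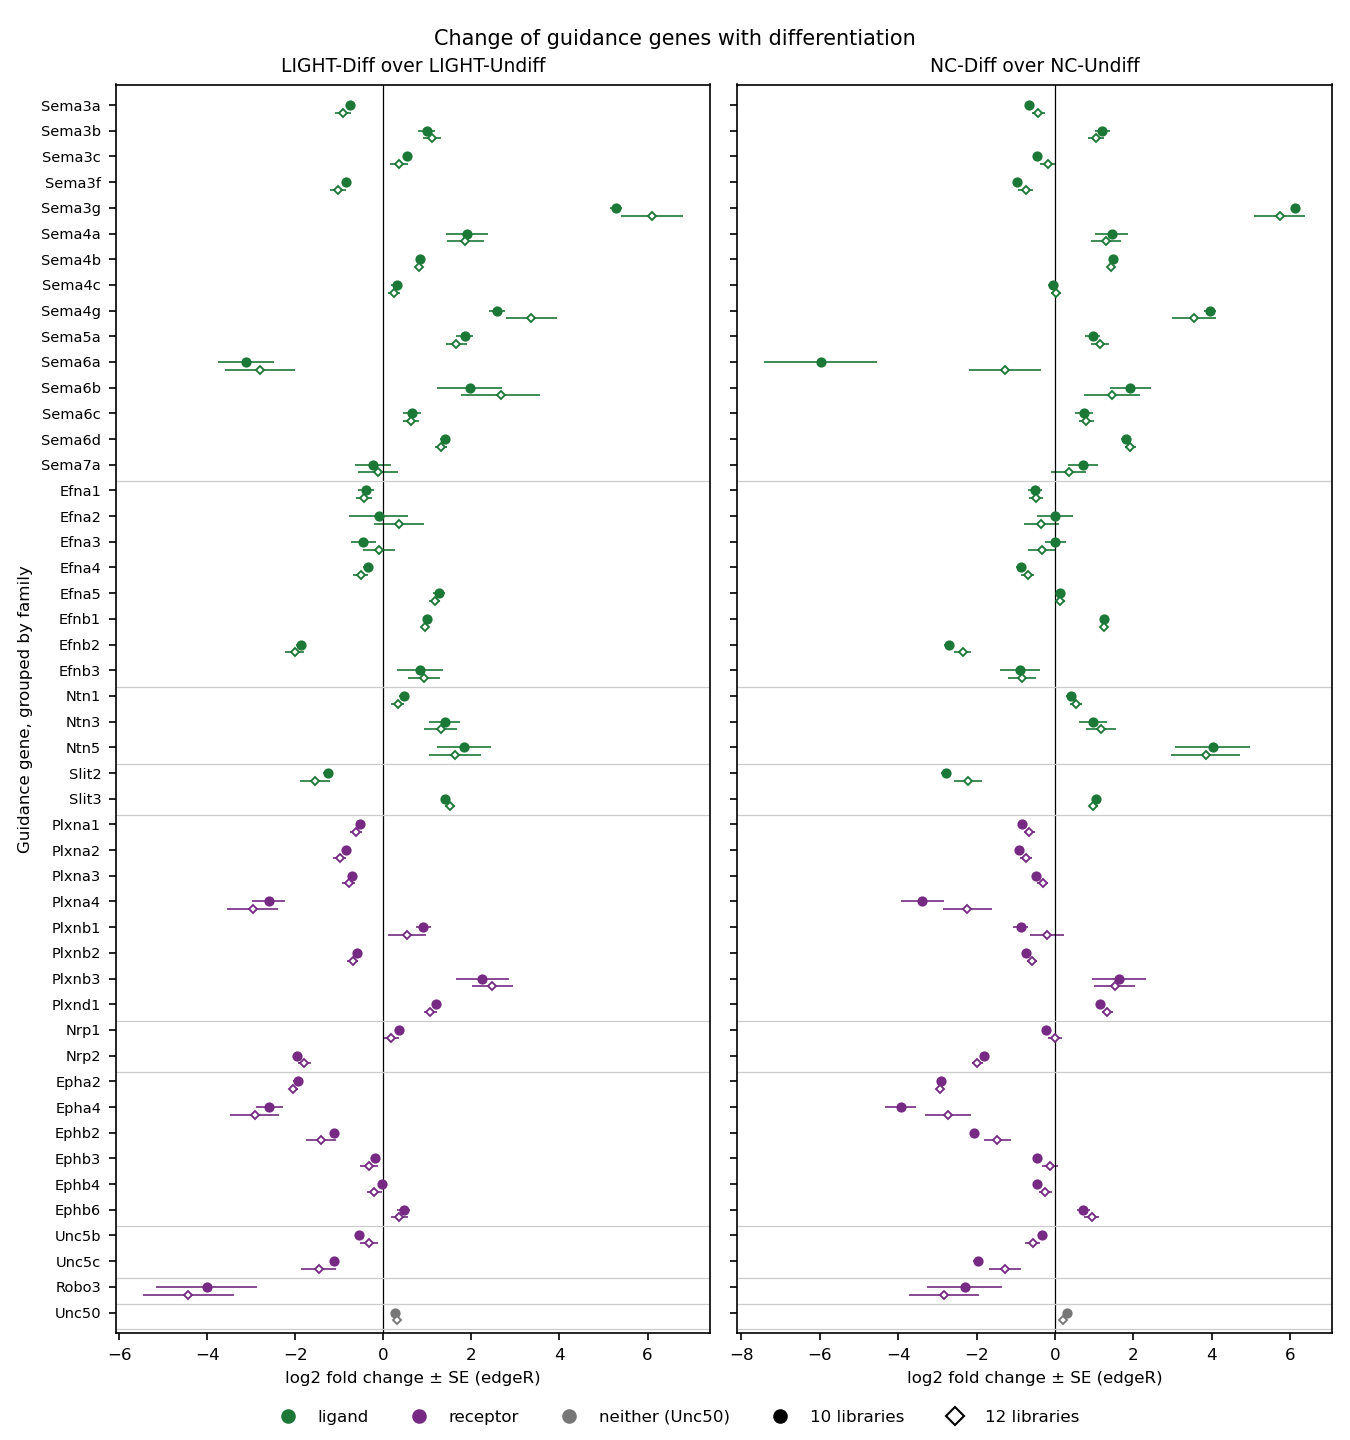
Change of the 48 tested guidance genes with differentiation, as log2 fold change ± SE from edgeR, in LIGHT cells (left) and NC cells (right), with families separated by grey lines. Filled circles are fits of 10 libraries without those labelled LIGHT-Diff 1 and NC-Diff 1 and open diamonds fits of all 12; most ligands (green) at the top lie right of 0 and most receptors (purple) left of it, with Sema3g and Sema4g far to the right.

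A semaphorin, Sema3g, had the largest rise of the tested guidance genes in both lines. Of the 15 semaphorins tested, 9 rose and 3 fell in LIGHT cells and 8 rose and 2 fell in NC cells. Of all genes tested, 58.6% were called in LIGHT cells (29.5% higher, 29.1% lower) and 63.9% in NC cells (32.2% higher, 31.7% lower). Sema3g, a secreted class 3 semaphorin, had 101, 29.1 and 31.1 CPM in LIGHT-Diff and 32.5, 104 and 100.1 CPM in NC-Diff, against 0.827, 0.629 and 0.859 CPM in LIGHT-Undiff and 1.56, 1.29 and 1.57 CPM in NC-Undiff. All 6 differentiated libraries were far above the undifferentiated ones, and the libraries labelled LIGHT-Diff 1 and NC-Diff 1 lay with the other line's replicates. Its log2 fold change was 6.11 ± 0.71 in LIGHT cells (adjusted p = 1.01e-05) and 5.74 ± 0.65 in NC cells (adjusted p = 6.24e-06), and without the 2 libraries 5.28 ± 0.13 in LIGHT cells and 6.13 ± 0.11 in NC cells. Within the class 3 semaphorins Sema3g made up 25.8% to 64.8% of the summed FPKM in differentiated libraries and 0.60% to 1.88% in undifferentiated ones.

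The other class 3 semaphorins took other courses. Sema3f, which binds mainly neuropilin 2, had 17.1, 28.1 and 25.4 CPM in LIGHT-Diff and 28.3, 16.7 and 18.5 CPM in NC-Diff, against 46.5, 50.1 and 47.7 CPM in LIGHT-Undiff and 38.0, 33.7 and 34.0 CPM in NC-Undiff. It fell in both lines, with log2 fold changes of -1.03 ± 0.19 in LIGHT cells (adjusted p = 0.00048) and -0.74 ± 0.19 in NC cells (adjusted p = 0.00455). For Sema3f the change without the 2 libraries was -0.84 ± 0.08 in LIGHT cells and -0.98 ± 0.09 in NC cells. Sema3a, the classic collapsing factor of growth cones, which binds neuropilin 1, fell by 0.92 in LIGHT cells (adjusted p = 0.000574) and by 0.42 in NC cells (adjusted p = 0.0493). The NC call was lost on leaving out any single library other than NC-Diff 1, LIGHT-Diff 1 or LIGHT-Diff 2 (adjusted p from 0.0602 to 0.208), and the change was -0.27 without NC-Diff 2 and -0.66 without NC-Diff 1. Without the 2 libraries it was -0.65 ± 0.08 (adjusted p = 5.12e-07). Sema3b rose in both lines, at 1.11 ± 0.20 in LIGHT cells and 1.05 ± 0.20 in NC cells (adjusted p = 0.000376 in LIGHT and 0.000449 in NC cells). Over the 10 libraries it rose by 0.99 ± 0.19 in LIGHT cells and 1.21 ± 0.19 in NC cells.

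Sema3c had 25.7, 42.2 and 38.5 CPM in LIGHT-Diff and 46.1, 28.3 and 26.2 CPM in NC-Diff, against 28.6, 26.7 and 28.1 CPM in LIGHT-Undiff and 35.7, 43.0 and 35.3 CPM in NC-Undiff. As labelled, the differentiated libraries of each line spanned their undifferentiated ones and neither line was called, with 95% intervals of the log2 change from -0.056 to 0.76 in LIGHT cells and from -0.588 to 0.222 in NC cells. Without the 2 libraries Sema3c rose in LIGHT cells (0.54 ± 0.09, adjusted p = 2.46e-05) and fell in NC cells (-0.46 ± 0.09, adjusted p = 0.000184).

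Membrane-bound semaphorins mostly rose. Of the 10 tested, 7 rose and 1 fell in LIGHT cells, while in NC cells 6 rose and the other 4 were not called. The shares over all genes were 29.5% higher and 29.1% lower in LIGHT cells and 32.2% higher and 31.7% lower in NC cells. Sema4g had 32.4, 9.40 and 10.97 CPM in LIGHT-Diff and 8.89, 33.0 and 29.8 CPM in NC-Diff, against 1.59, 1.52 and 1.99 CPM in LIGHT-Undiff and 2.42, 2.08 and 1.63 CPM in NC-Undiff. All differentiated libraries exceeded the undifferentiated ones, and the libraries labelled LIGHT-Diff 1 and NC-Diff 1 again lay with the other line. The log2 fold change was 3.36 ± 0.58 in LIGHT cells (adjusted p = 0.000273) and 3.54 ± 0.56 in NC cells (adjusted p = 0.000128), or 2.58 ± 0.18 in LIGHT cells and 3.96 ± 0.16 in NC cells without the 2 libraries.

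Sema4b had 35.1, 35.3 and 39.3 CPM in LIGHT-Diff and 38.1, 38.9 and 39.8 CPM in NC-Diff, against 18.1, 22.7 and 21.8 CPM in LIGHT-Undiff and 13.3, 14.8 and 15.1 CPM in NC-Undiff. The differentiated libraries lay close together and above all others, and the log2 fold change was 0.81 ± 0.09 in LIGHT cells (adjusted p = 9.69e-06) and 1.44 ± 0.10 in NC cells (adjusted p = 5.08e-08). Sema4b rose over the 10 libraries by 0.84 ± 0.10 in LIGHT cells and 1.48 ± 0.10 in NC cells. Sema6d, a ligand of plexin-A1, had 37.3, 48.3 and 42.7 CPM in LIGHT-Diff and 52.3, 39.4 and 41.0 CPM in NC-Diff, against 16.4, 16.1 and 19.4 CPM in LIGHT-Undiff and 13.3, 11.5 and 10.1 CPM in NC-Undiff. It also rose without overlap, by 1.31 ± 0.14 in LIGHT cells (adjusted p = 4.92e-06) and 1.92 ± 0.14 in NC cells (adjusted p = 1.49e-07). The 10 libraries gave 1.399 ± 0.10 in LIGHT cells and 1.81 ± 0.11 in NC cells. Sema4a, Sema5a and Sema6c rose in both lines by log2 changes from 0.63 (Sema6c in LIGHT cells) to 1.86 (Sema4a in LIGHT cells). Sema4a passed the low-count filter over 12 libraries only with the differentiated ones, so it was tested because of its level there.

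Among the others of this class, Sema6b rose in LIGHT cells (2.66, adjusted p = 0.0214) at 0.052 to 2.79 CPM, a call lost without LIGHT-Undiff 1, LIGHT-Undiff 2 or LIGHT-Diff 1 (adjusted p from 0.0739 to 0.0962), while the change was 4.11 without LIGHT-Undiff 3. Like Sema4a, Sema6b passed the low-count filter over 12 libraries only with the differentiated ones, so it was tested because of its level there. Sema6a fell in LIGHT cells (log2 fold change -2.80 ± 0.79, adjusted p = 0.00854). In NC cells Sema6a was not called over 12 libraries (-1.26 ± 0.92, adjusted p = 0.248), and the library labelled NC-Diff 1 held 9 counts. Without that library its 0 counts against 23 made it at least 5.63-fold lower, taking 3 counts over the group as the floor. Sema6a passed the low-count filter through undifferentiated libraries alone, so it was tested only because of its level there. Sema4c, a ligand of plexin-B2 and the most abundant membrane-bound semaphorin before differentiation, was not called in either line over 12 libraries, at 19.7 to 31.0 CPM in differentiated and 20.2 to 27.8 CPM in undifferentiated libraries. Its 95% interval ran from -0.014 to 0.512 in LIGHT cells and from -0.238 to 0.292 in NC cells, and without the 2 libraries it rose in LIGHT cells (0.30 ± 0.12, adjusted p = 0.0346).

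The B-type ephrins, which span the membrane, exchanged their leading member. Efnb1 had 38.8, 41.6 and 41.1 CPM in LIGHT-Diff and 38.7, 36.3 and 36.3 CPM in NC-Diff, against 21.0, 19.6 and 22.5 CPM in LIGHT-Undiff and 16.3, 14.6 and 15.7 CPM in NC-Undiff. Efnb2, the ephrin of arterial vessels and the main partner of the receptor Ephb4, had 8.16, 12.2 and 10.3 CPM in LIGHT-Diff and 12.3, 6.30 and 6.48 CPM in NC-Diff, against 42.2, 39.4 and 43.1 CPM in LIGHT-Undiff and 46.3, 42.4 and 38.6 CPM in NC-Undiff. Neither gene overlapped between the stages. Efnb1 rose by 0.95 ± 0.08 in LIGHT cells (adjusted p = 3.67e-07) and 1.25 ± 0.08 in NC cells (adjusted p = 2.68e-08). Efnb2 fell, with log2 fold changes of -2.02 ± 0.21 in LIGHT cells (adjusted p = 4.07e-06) and -2.35 ± 0.22 in NC cells (adjusted p = 9.78e-07). The changes without the 2 libraries were 0.98 ± 0.08 in LIGHT cells and 1.25 ± 0.09 in NC cells for Efnb1. For Efnb2 they were -1.87 ± 0.10 in LIGHT cells and -2.71 ± 0.11 in NC cells. On the per-length FPKM scale Efnb1 made up 79.3% to 87.0% of the ephrin-B sum in differentiated and 30.1% to 40.0% in undifferentiated libraries.

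The A-type ephrins, held to the membrane by a lipid anchor, were lower in sum after differentiation, at 15.8 to 22.3 FPKM in differentiated and 23.7 to 28.6 FPKM in undifferentiated libraries. The most abundant, Efna4, had 8.48, 12.3 and 12.4 CPM in LIGHT-Diff and 11.8, 8.96 and 7.67 CPM in NC-Diff, against 15.8, 16.1 and 15.6 CPM in LIGHT-Undiff and 15.8, 14.0 and 16.1 CPM in NC-Undiff. It was lower in every differentiated library and fell in LIGHT cells (-0.51 ± 0.17, adjusted p = 0.0188) and NC cells (-0.70 ± 0.17, adjusted p = 0.00311). The LIGHT call was lost without LIGHT-Undiff 2 (adjusted p = 0.0502) or LIGHT-Diff 1 (adjusted p = 0.0663), and over the 10 libraries it held (-0.35 ± 0.12, adjusted p = 0.0133). In NC cells the 10 libraries gave -0.86 ± 0.12. Efna5 had 12.0, 14.5 and 15.3 CPM in LIGHT-Diff and 13.2, 12.2 and 13.1 CPM in NC-Diff, against 5.55, 6.39 and 6.71 CPM in LIGHT-Undiff and 11.1, 11.9 and 12.1 CPM in NC-Undiff. Undifferentiated LIGHT libraries were the low ones, and Efna5 rose in LIGHT cells (1.16 ± 0.12, adjusted p = 4.94e-06) while its change in NC cells was 0.13 ± 0.12 (adjusted p = 0.364). The change of Efna5 over the 10 libraries was 1.26 ± 0.13 in LIGHT cells and 0.13 ± 0.12 in NC cells (adjusted p = 0.337 in NC cells). Efna1 fell in NC cells (-0.48 ± 0.19, adjusted p = 0.0376), a call lost without NC-Undiff 1 (-0.30), NC-Undiff 2, LIGHT-Undiff 1, NC-Diff 2 or NC-Diff 3, and Efna2 and Efna3 were called in neither line.

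Netrins were low and rose where they were called. Ntn1, the classic netrin and the most abundant here, had 19.1, 27.7 and 25.1 CPM in LIGHT-Diff and 25.2, 20.1 and 18.03 CPM in NC-Diff, against 19.7, 17.7 and 20.02 CPM in LIGHT-Undiff and 16.4, 12.8 and 14.5 CPM in NC-Undiff. The library labelled LIGHT-Diff 1 lay among the LIGHT-Undiff ones, and Ntn1 rose in NC cells (0.53 ± 0.16, adjusted p = 0.0096) but was not called in LIGHT cells (0.33 ± 0.15, adjusted p = 0.0861). Without the 2 libraries it rose in LIGHT cells (0.47 ± 0.11, adjusted p = 0.00109) and in NC cells (0.41 ± 0.12, adjusted p = 0.00417). Ntn3 rose in both lines (1.30 ± 0.38 in LIGHT and 1.17 ± 0.38 in NC cells) at 2.86 to 5.12 CPM in differentiated and 0.674 to 2.16 CPM in undifferentiated libraries. Ntn5 was called higher in both lines, with 33 counts in NC-Diff against 2 in NC-Undiff, a ratio of 15.6 whose 95% counting interval ran from 3.99 to 134. Ntn5 passed the low-count filter only with the differentiated libraries, so it was tested because of its level there. The Ntn5 call in LIGHT cells was lost without LIGHT-Undiff 1, LIGHT-Undiff 2, LIGHT-Diff 2 or LIGHT-Diff 3 (adjusted p from 0.0677 to 0.093).

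Of the Slits, Slit3 rose and Slit2 fell. Slit3 had 117, 100.3 and 84.0 CPM in LIGHT-Diff and 104, 117 and 115 CPM in NC-Diff, against 34.0, 34.3 and 37.7 CPM in LIGHT-Undiff and 61.6, 52.2 and 56.9 CPM in NC-Undiff. Slit2, a fragment of which is known in mice as a product of beige fat cells, had 15.9, 37.3 and 36.3 CPM in LIGHT-Diff and 44.3, 16.7 and 18.4 CPM in NC-Diff, against 78.1, 80.3 and 105 CPM in LIGHT-Undiff and 136, 119 and 115 CPM in NC-Undiff. Each stage was separate from the other in both genes. Slit3 rose by 1.51 ± 0.11 in LIGHT cells (adjusted p = 1.81e-07) and 0.98 ± 0.11 in NC cells (adjusted p = 5.68e-06). Slit3 without the 2 libraries rose by 1.39 ± 0.08 in LIGHT cells and 1.05 ± 0.08 in NC cells. Slit2 fell, at -1.55 ± 0.35 in LIGHT cells (adjusted p = 0.00199) and -2.22 ± 0.36 in NC cells (adjusted p = 0.000131), and at -1.25 ± 0.11 in LIGHT cells and -2.78 ± 0.12 in NC cells without the 2 libraries. Slit3 made up 82.5% to 93.7% of the summed Slit FPKM in differentiated libraries and 42.2% to 50.1% in undifferentiated ones.

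**Figure D3:**
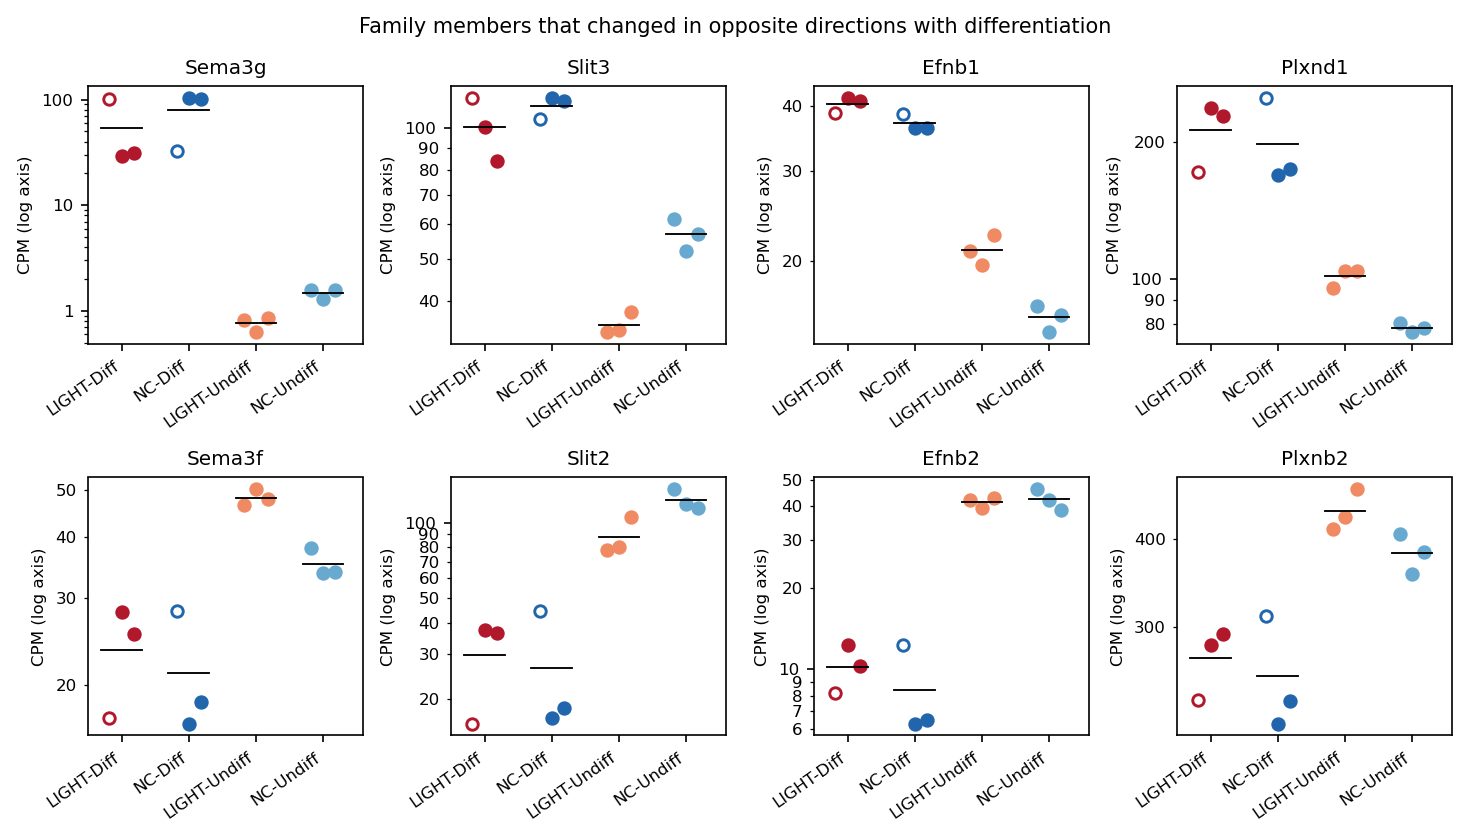
CPM (log axis) in each library of a family member that rose with differentiation (top) and one that fell (bottom), for class 3 semaphorins, Slits, B-type ephrins and plexins. Points are libraries, open points the libraries labelled LIGHT-Diff 1 and NC-Diff 1 and lines the means of 3 libraries; Slit3 lies at 84.0 to 117 CPM in differentiated libraries against 34.0 to 61.6 CPM before, and Slit2 at 15.9 to 44.3 CPM against 78.1 to 136 CPM.

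Receptors for these ligands mostly fell. Plexins were the most abundant receptors, and all 4 plexin-A genes were lower in LIGHT cells and 3 of 4 in NC cells. The share of all genes called lower was 29.1% in LIGHT cells and 31.7% in NC cells. Plxnb2, the most abundant guidance gene by FPKM, had 237, 283 and 293 CPM in LIGHT-Diff and 312, 219 and 236 CPM in NC-Diff, against 414, 430.0 and 472 CPM in LIGHT-Undiff and 407, 358 and 384 CPM in NC-Undiff. No differentiated library reached the undifferentiated ones, and Plxnb2 fell in LIGHT cells (-0.69 ± 0.12, adjusted p = 0.000384) and NC cells (-0.58 ± 0.12, adjusted p = 0.00119). For Plxnb2 the change without the 2 libraries was -0.60 ± 0.07 in LIGHT cells and -0.73 ± 0.07 in NC cells. Plxna1 and Plxna2 fell in both lines by log2 changes from -0.99 to -0.62. Plxna4 fell to at most 0.898 CPM in differentiated libraries, against at least 1.63 CPM in undifferentiated ones (-2.97 ± 0.57 in LIGHT cells, -2.23 ± 0.64 in NC cells). Without NC-Diff 1 its change in NC cells was -3.39.

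Plexin-D1, the receptor that some semaphorins bind without a neuropilin, went the other way. Plxnd1 had 173, 238 and 228 CPM in LIGHT-Diff and 251, 169.6 and 175 CPM in NC-Diff, against 95.9, 104 and 104 CPM in LIGHT-Undiff and 80.2, 76.6 and 78.3 CPM in NC-Undiff. It rose by 1.07 ± 0.15 in LIGHT cells (adjusted p = 4.06e-05) and 1.34 ± 0.15 in NC cells (adjusted p = 4.94e-06), with no overlap between stages. Over the 10 libraries the rise was 1.21 ± 0.05 in LIGHT cells and 1.16 ± 0.05 in NC cells. Its share of the summed plexin FPKM was 30.6% to 33.4% in differentiated and 10.5% to 12.9% in undifferentiated libraries. The weakly expressed Plxnb3, at 0.435 to 1.62 CPM after and 0.115 to 0.314 CPM before differentiation, rose in LIGHT cells by 2.47 ± 0.47 (adjusted p = 0.000617) and in NC cells by 1.52 ± 0.54 (adjusted p = 0.0249). The NC call was lost without NC-Undiff 1, NC-Undiff 2, NC-Diff 2 or NC-Diff 3 (adjusted p from 0.0553 to 0.0843). Plxnb3 passed the low-count filter through differentiated libraries alone, so it was tested only because of its level there.

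The neuropilins differed from each other. Nrp1 had 115, 173 and 161 CPM in LIGHT-Diff and 190.0, 119.9 and 121 CPM in NC-Diff, against 125, 130.2 and 140.3 CPM in LIGHT-Undiff and 165, 136 and 131 CPM in NC-Undiff. Nrp2 had 36.6, 24.7 and 28.0 CPM in LIGHT-Diff and 28.4, 37.7 and 39.2 CPM in NC-Diff, against 101, 96.3 and 112 CPM in LIGHT-Undiff and 148, 129 and 137 CPM in NC-Undiff. Nrp1 libraries overlapped between stages, whereas Nrp2 was lower in every differentiated library. Nrp2 fell in LIGHT cells (-1.79 ± 0.15, adjusted p = 4.31e-07) and NC cells (-1.98 ± 0.15, adjusted p = 1.27e-07). Nrp2 changed over the 10 libraries by -1.965 ± 0.09 in LIGHT cells and -1.82 ± 0.08 in NC cells. Over 12 libraries Nrp1 was not called, with 95% intervals from -0.172 to 0.54 in LIGHT cells and from -0.359 to 0.352 in NC cells, and without the 2 libraries it rose in LIGHT cells (0.35 ± 0.08, adjusted p = 0.000622) and fell in NC cells (-0.23 ± 0.08, adjusted p = 0.0129).

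The Eph receptor with the clearest fall was Epha2, the main EphA gene of these cells. It had 8.23, 10.4 and 10.2 CPM in LIGHT-Diff and 9.20, 9.57 and 8.96 CPM in NC-Diff, against 39.2, 38.1 and 41.8 CPM in LIGHT-Undiff and 78.8, 64.2 and 68.0 CPM in NC-Undiff. The differentiated libraries of both lines lay together, while the undifferentiated ones formed separate ranges. The log2 fold change was -2.04 ± 0.10 in LIGHT cells (adjusted p = 6.57e-09) and -2.93 ± 0.11 in NC cells (adjusted p = 2.33e-10). The 10 libraries gave Epha2 changes of -1.94 ± 0.10 in LIGHT cells and -2.90 ± 0.10 in NC cells. Epha4, which binds ephrins of both types, also fell in both lines, with 0.054 to 2.24 CPM in differentiated and 6.13 to 11.9 CPM in undifferentiated libraries (-2.93 ± 0.56 in LIGHT and -2.73 ± 0.59 in NC cells). Epha4 without the 2 libraries changed by -2.59 ± 0.30 in LIGHT cells and -3.94 ± 0.40 in NC cells.

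Among the EphB receptors, Ephb2 had 10.8, 23.1 and 24.4 CPM in LIGHT-Diff and 25.5, 8.42 and 10.5 CPM in NC-Diff, against 49.8, 50.2 and 56.4 CPM in LIGHT-Undiff and 43.0, 40.6 and 38.6 CPM in NC-Undiff. It fell without overlap in LIGHT cells (-1.42 ± 0.34, adjusted p = 0.00311) and NC cells (-1.47 ± 0.35, adjusted p = 0.00261), with a change without the 2 libraries of -1.13 ± 0.09 in LIGHT cells and -2.07 ± 0.10 in NC cells. Ephb4, the venous partner of ephrin-B2 and the most abundant Eph gene by FPKM, had 81.1, 113 and 126 CPM in LIGHT-Diff and 118, 76.4 and 77.5 CPM in NC-Diff, against 119, 122 and 127 CPM in LIGHT-Undiff and 108, 106 and 108 CPM in NC-Undiff. It was not called over 12 libraries (95% interval from -0.53 to 0.127 in LIGHT cells and from -0.575 to 0.086 in NC cells) and fell in NC cells without the 2 libraries (-0.46 ± 0.06, adjusted p = 1.16e-06), at -0.03 ± 0.06 in LIGHT cells (adjusted p = 0.622). Ephb6, whose kinase domain is inactive, rose in NC cells (0.94 ± 0.20, adjusted p = 0.00106). In LIGHT cells Ephb6 was not called over 12 libraries (adjusted p = 0.117) and rose without the 2 libraries (0.46 ± 0.15, adjusted p = 0.0115). Ephb3 was called in neither line over 12 libraries. Without the 2 libraries it was lower in LIGHT cells (-0.18 ± 0.08, adjusted p = 0.0496) and in NC cells (-0.44 ± 0.08, adjusted p = 7.41e-05).

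The netrin receptors Unc5b and Unc5c fell by different amounts, and Robo genes were barely detected. Unc5b had 99.7, 66.6 and 62.3 CPM in LIGHT-Diff and 68.5, 116 and 108 CPM in NC-Diff, against 93.5, 90.0 and 103 CPM in LIGHT-Undiff and 160.3, 129.7 and 142 CPM in NC-Undiff. The library labelled LIGHT-Diff 1 lay within the LIGHT-Undiff range, and Unc5b fell in NC cells (-0.56 ± 0.19, adjusted p = 0.0228) but was not called in LIGHT cells (-0.33 ± 0.20, adjusted p = 0.17). The NC call was lost without NC-Undiff 1 (adjusted p = 0.0831) or NC-Diff 1 (adjusted p = 0.0797), but over the 10 libraries Unc5b fell in both lines (-0.56 ± 0.08 in LIGHT and -0.34 ± 0.08 in NC cells). Unc5c fell in LIGHT cells (-1.47 ± 0.40, adjusted p = 0.00705) and in NC cells (-1.27 ± 0.41, adjusted p = 0.0156), the NC call being lost without NC-Diff 2 (adjusted p = 0.0638) or NC-Diff 3 (adjusted p = 0.067). Without the 2 libraries the NC change of Unc5c was -1.961 ± 0.13.

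Robo3, the only Robo gene tested, had 0, 0 and 1 counts in LIGHT-Diff and 0, 3 and 0 in NC-Diff, against 10, 10 and 11 in LIGHT-Undiff and 7, 5 and 12 in NC-Undiff. The ratio of summed CPM was 0.0326 in LIGHT cells (95% counting interval 0.000799 to 0.195) and 0.118 in NC cells (0.0228 to 0.389). Robo3 was called lower in both lines (adjusted p = 0.00263 in LIGHT and 0.0149 in NC cells), the NC call being lost without NC-Undiff 3 (adjusted p = 0.061) or NC-Diff 3 (adjusted p = 0.0584), and all its NC-Diff counts lay in NC-Diff 2. Over the 10 libraries both calls held (adjusted p = 0.00459 in LIGHT and 0.0399 in NC cells). Robo3 passed the low-count filter through undifferentiated libraries alone, so it was tested only because of its level there. The summed FPKM of all 3 Robo genes stayed at 0.16 or below in every library, while the 3 Slit genes summed to 15.2 to 27.6 FPKM.

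The promoters of a pair of genes with large rises and a pair with large falls are shown as sequence context for members that moved in the same direction in both lines. Each is the 250 bases before the RefSeq start on the plus strand (build GRCm38.p6, which is not the build of the counts), and capitals mark matches on either strand to a searched motif. The motifs were the GC box with the letters GGGCGG, the TATA box with the letters TATAAA, the nuclear receptor element with the letters AGGTCA, the CCAAT box, the AP-1 site with the letters TGANTCA and the E-box with the letters CACGTG. No motif overlaps another in these 4 windows. The intervals are chr14:31217623-31217872 for Sema3g, chr19:44989094-44989343 for Sema4g, chr5:47982905-47983154 for Slit2 and chr4:141300971-141301220 for Epha2.
Sema3g: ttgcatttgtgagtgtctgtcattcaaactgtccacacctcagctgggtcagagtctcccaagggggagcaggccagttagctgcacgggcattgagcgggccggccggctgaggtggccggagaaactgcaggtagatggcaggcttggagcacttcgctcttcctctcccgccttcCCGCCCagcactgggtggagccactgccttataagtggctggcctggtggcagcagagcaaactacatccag
Sema4g: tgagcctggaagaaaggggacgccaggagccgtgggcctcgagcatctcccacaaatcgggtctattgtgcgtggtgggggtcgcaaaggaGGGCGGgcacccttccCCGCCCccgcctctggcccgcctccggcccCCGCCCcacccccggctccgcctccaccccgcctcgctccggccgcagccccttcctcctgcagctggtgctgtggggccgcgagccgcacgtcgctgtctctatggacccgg
Slit2: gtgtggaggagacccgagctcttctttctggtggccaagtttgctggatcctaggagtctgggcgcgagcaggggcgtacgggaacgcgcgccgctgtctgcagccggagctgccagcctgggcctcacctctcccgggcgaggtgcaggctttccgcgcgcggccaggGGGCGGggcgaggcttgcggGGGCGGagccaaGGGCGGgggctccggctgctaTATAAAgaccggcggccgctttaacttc
Epha2: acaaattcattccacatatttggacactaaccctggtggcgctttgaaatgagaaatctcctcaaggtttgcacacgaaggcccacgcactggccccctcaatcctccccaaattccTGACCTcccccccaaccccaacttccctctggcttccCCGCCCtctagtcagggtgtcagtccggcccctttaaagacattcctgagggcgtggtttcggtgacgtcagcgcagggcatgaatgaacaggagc
A GC box was found in all 4, 3 times in Sema4g and in Slit2. Slit2 also held a TATA box and Epha2 a nuclear receptor element. Over all 32851 RefSeq promoters of this length 32.7% held a GC box, 12.4% a TATA box, 33.8% a CCAAT box, 14% a nuclear receptor element, 6.75% an AP-1 site and 6.02% an E-box. RefSeq promoters were at hand for 55 of the 64 guidance genes, and of their 69 promoters 51 held a GC box, 2 a TATA box, 19 a CCAAT box, 11 a nuclear receptor element, 3 an AP-1 site and 3 an E-box. A match of letters is a description and no evidence of binding.

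Before differentiation the share of guidance genes called between the lines was close to that of all genes in the fit of 12 libraries. In the fit without the 2 libraries, given below, it was above the 44.4% of all genes called. Over 12 libraries 5 of 48 guidance genes were higher and 7 lower in LIGHT-Undiff than in NC-Undiff, with 26.5% of all genes called (12.3% higher, 14.2% lower). Ligands counted 4 higher and 4 lower, receptors 1 higher (Ephb6) and 3 lower (Epha2, Nrp2 and Unc5b). Epha2, with the values given above, had the smallest p (-0.83 ± 0.09, adjusted p = 8.92e-05), followed by Efna5 (-0.91 ± 0.12, adjusted p = 0.000298) and Slit3 (-0.69 ± 0.11, adjusted p = 0.000914), all lower in LIGHT cells. For each of these 3 the highest LIGHT-Undiff library lay below the lowest NC-Undiff library. Efnb1 and Sema4b were higher in LIGHT cells (0.44 ± 0.08, adjusted p = 0.00176, and 0.54 ± 0.10, adjusted p = 0.00177), again without overlap.

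The weaker calls of this comparison were lost when libraries were left out, in part also libraries outside it. Neither Nrp2 (96.3 to 112 CPM in LIGHT-Undiff, 129 to 148 CPM in NC-Undiff) nor Unc5b (90.0 to 103 and 129.7 to 160.3 CPM) overlapped between the groups. By DESeq2 without the 2 libraries, the adjusted p was 7.54e-08 for Nrp2 and 6.96e-14 for Unc5b. Nrp2 (-0.42 ± 0.14, adjusted p = 0.0393) and Unc5b (-0.59 ± 0.19, adjusted p = 0.0402) each lost their call without any 1 of the undifferentiated libraries (adjusted p from 0.0526 to 0.135 for Nrp2 and from 0.0595 to 0.135 for Unc5b), Nrp2 also without NC-Diff 2 and Unc5b without NC-Diff 3. Sema6d (0.57 ± 0.15, adjusted p = 0.0133) lost it without NC-Undiff 3 (adjusted p = 0.0584) or LIGHT-Undiff 3 (adjusted p = 0.0566), and Ephb6 (0.67 ± 0.20, adjusted p = 0.0254) without NC-Undiff 2 or 3 or LIGHT-Undiff 2 or 3. The low genes Efna2, Efnb3 and Ntn5 were called too, each likewise lost without single libraries, and Ntn5 had 19 counts in LIGHT-Undiff against 2 in NC-Undiff (ratio 9.02, 95% counting interval 2.18 to 79.9). Efna2 and Efnb3 passed the low-count filter over 12 libraries only with the NC-Undiff libraries, so they were tested because of their level there. In the fit without the 2 libraries, which keeps every undifferentiated library and changes the shared estimate of spread, all 12 calls held and 20 more were added. That gave 19 genes higher and 13 lower in LIGHT-Undiff, with 44.4% of all genes called (22.3% higher, 22.1% lower). Receptors then counted 11 higher and 3 lower, and ligands 8 higher and 9 lower. Receptors added as higher in LIGHT-Undiff included Ephb2 (0.37 ± 0.07), Plxnd1 (0.39 ± 0.05) and Plxnb2 (0.21 ± 0.06), with adjusted p = 0.000533, 5.18e-06 and 0.00648. Slit2 was lower (-0.47 ± 0.09, adjusted p = 0.000244) and so was Sema3c (-0.44 ± 0.08, adjusted p = 0.000201). Leukocyte markers differed between these groups too, at 1.22 to 1.38 FPKM in LIGHT-Undiff and 3.88 to 4.26 FPKM in NC-Undiff with Cd3e at 0. Preadipocyte and fibroblast markers summed to 5358 to 5524 FPKM in LIGHT-Undiff and 4637 to 4864 FPKM in NC-Undiff, and adipocyte markers to 66.5 to 107 FPKM in LIGHT-Undiff and 110.2 to 126 FPKM in NC-Undiff. None of these 3 sums overlapped between the groups, and their part in these differences was not tested.

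After differentiation the result depended on the 2 libraries. As labelled, edgeR called 0 of 48 guidance genes and 0% of all genes between LIGHT-Diff and NC-Diff, with 3 guidance genes at an unadjusted p under 0.05 and 523 of all 12993 genes tested, and DESeq2 called 1 gene of all. Without them 20 guidance genes were higher and 8 lower in LIGHT-Diff than in NC-Diff, with 31% of all genes called (14.6% higher, 16.4% lower). Receptors counted 12 higher and 2 lower of 19, ligands 8 higher and 5 lower of 28, at medians of 0.43 and 0.30 against -0.011 over all genes. These counts rest on 2 libraries per differentiated group.

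The semaphorins with the largest rises on differentiation were lower in LIGHT-Diff than in NC-Diff in the 10 libraries. Sema3g differed by -1.77 ± 0.08 (adjusted p = 1.94e-11) and Sema4g by -1.63 ± 0.15 (adjusted p = 1.32e-07), with both LIGHT-Diff libraries below both NC-Diff ones. The netrin receptor Unc5b was lower (-0.80 ± 0.09, adjusted p = 1.4e-06), as were Nrp2 (-0.56 ± 0.10, adjusted p = 0.000229) and Slit3 (-0.34 ± 0.09, adjusted p = 0.00527). Several receptors were higher in LIGHT-Diff, among them Ephb2 (1.31 ± 0.12, adjusted p = 7.97e-08), Ephb4 (0.63 ± 0.06, adjusted p = 5.93e-07) and Unc5c (1.22 ± 0.14, adjusted p = 2.32e-06). Plxnb1, a receptor for class 4 semaphorins, had 2.87, 8.77 and 8.10 CPM in LIGHT-Diff and 8.64, 2.67 and 3.24 CPM in NC-Diff, against 3.84, 4.50 and 5.21 CPM in LIGHT-Undiff and 5.48, 6.01 and 5.07 CPM in NC-Undiff. Only the libraries labelled LIGHT-Diff 1 and NC-Diff 1 broke the order of its differentiated libraries, and without them the difference was 1.502 ± 0.20 (adjusted p = 1.65e-05). Among ligands Slit2 was higher in LIGHT-Diff (1.06 ± 0.14, adjusted p = 8.34e-06) and so were Efnb2 (0.82 ± 0.14, adjusted p = 0.000144) and Sema3c (0.56 ± 0.10, adjusted p = 0.000252).

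Adipocyte markers differed between the differentiated libraries too. The summed level of the 6 adipocyte markers was 27771, 19128 and 19309 FPKM in LIGHT-Diff and 18159, 26645 and 26863 FPKM in NC-Diff, so that the libraries labelled LIGHT-Diff 1 and NC-Diff 1 lay with the other line here too. Preadipocyte and fibroblast markers summed to 4040, 4219 and 4169 FPKM in LIGHT-Diff and 4399, 4046 and 3976 FPKM in NC-Diff. The part of the extent of differentiation in the differences between LIGHT-Diff and NC-Diff was not tested.

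**Figure D4:**
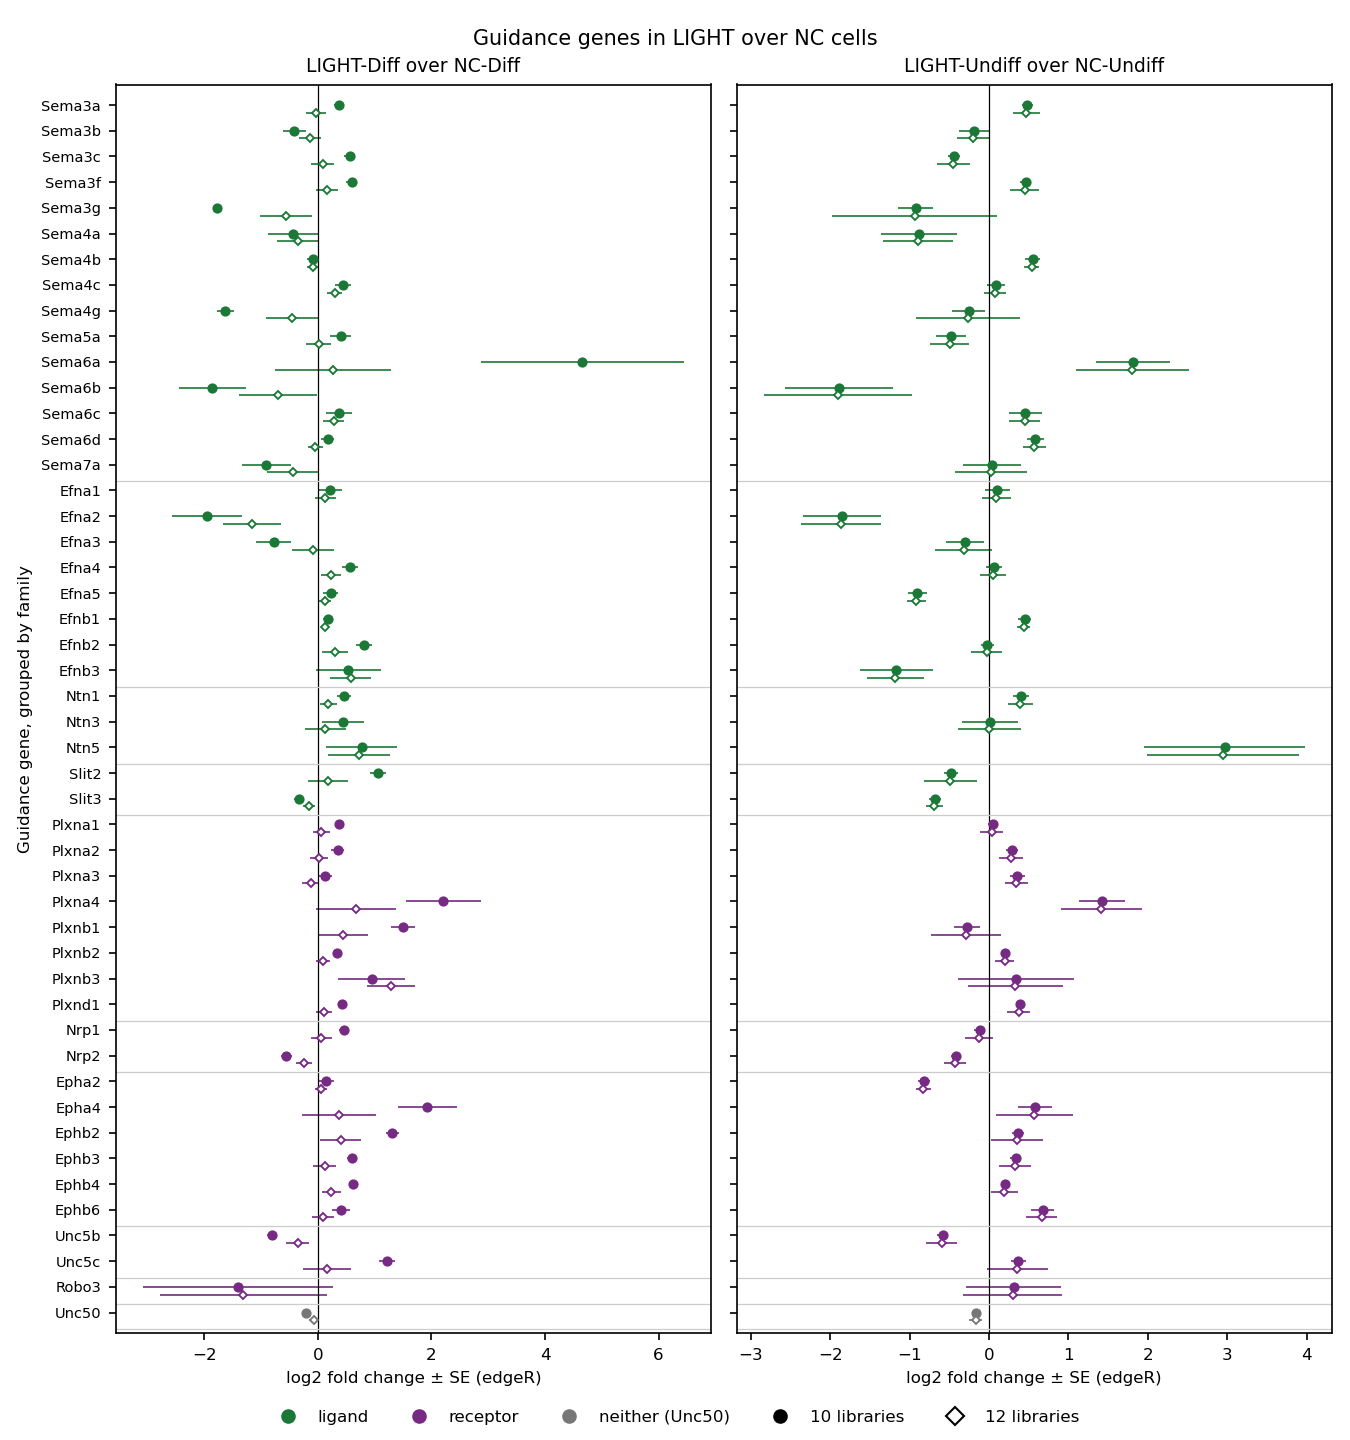
Difference of the 48 tested guidance genes between LIGHT and NC cells, as log2 fold change ± SE from edgeR, after differentiation (left) and before it (right). Filled circles are fits of 10 libraries without those labelled LIGHT-Diff 1 and NC-Diff 1 and open diamonds fits of all 12; on the left the diamonds gather about 0, with Sema3g at -1.77 and Plxnb1 at 1.502 in the 10 libraries.

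Whether the change on differentiation itself differed between the lines was tested as an interaction, the change in LIGHT cells minus the change in NC cells. Over 12 libraries 3 guidance genes had a positive and 1 a negative difference, with 9.34% of all genes called (5.08% positive, 4.26% negative). Efna5 rose more in LIGHT cells (difference 1.03 ± 0.17, adjusted p = 0.0035), Epha2 fell less in LIGHT cells (0.88 ± 0.15, adjusted p = 0.00328) and Sema4b rose less (-0.63 ± 0.13, adjusted p = 0.0115). The fourth, Efnb3 (1.76 ± 0.51, adjusted p = 0.0489), was lost in the 10 libraries and on leaving out most single libraries. For Epha2, Efna5 and Sema4b the libraries of LIGHT-Diff and NC-Diff overlapped, while those of LIGHT-Undiff and NC-Undiff did not. Only Sema4b still overlapped after differentiation without the 2 libraries. LIGHT-Diff was then higher for Epha2 (10.4 and 10.2 against 9.57 and 8.96 CPM) and Efna5 (14.5 and 15.3 against 12.2 and 13.1 CPM). Neither difference was called by edgeR (adjusted p = 0.424 for Epha2 and 0.203 for Efna5).

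Without the 2 libraries 14 guidance genes had a positive and 4 a negative difference, with 31% of all genes called (14.9% positive, 16.1% negative). Slit2 had the smallest p (1.53 ± 0.16, adjusted p = 9.2e-07), being lower in LIGHT-Undiff than in NC-Undiff but higher in LIGHT-Diff than in NC-Diff. The same crossing was seen for Sema3c (1.00 ± 0.13, adjusted p = 8.78e-06), and no other guidance gene was called in opposite directions at the 2 stages. Plxnb1 (1.78 ± 0.26, adjusted p = 4.23e-05) and Nrp1 (0.58 ± 0.11, adjusted p = 0.000505) rose in LIGHT and fell in NC cells. Of the 14 positive differences 7 were of receptors and 7 of ligands, and the 4 negative ones were of the semaphorins Sema3g, Sema4b, Sema4g and Sema6d. Sema4g had the largest of these (-1.38 ± 0.26, adjusted p = 0.000408).

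**Figure D5:**
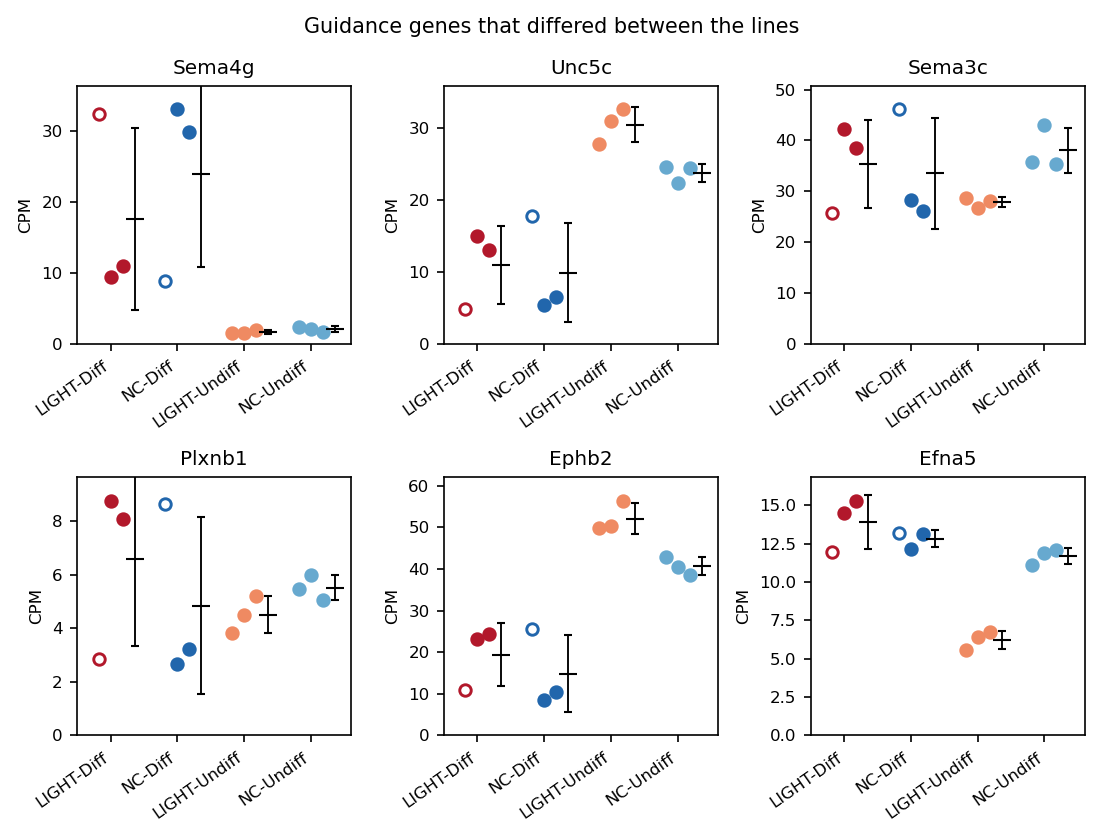
CPM in each library, on axes from 0, of guidance genes that differed between the lines. Points are libraries, open points the libraries labelled LIGHT-Diff 1 and NC-Diff 1, and the cross-bar gives mean ± SD of 3 libraries; for Sema4g, Plxnb1, Unc5c, Ephb2 and Sema3c each open point lies near the filled points of the other line, while Efna5 differs mainly between LIGHT-Undiff (5.55 to 6.71 CPM) and NC-Undiff (11.1 to 12.1 CPM).

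Partners of these genes outside the families were called lower more often than higher in both lines, except the growth factors. The shares of called genes in these lists stand against 58.6% of all genes in LIGHT cells and 63.9% in NC cells over 12 libraries, and against 64.1% in LIGHT cells and 70.7% in NC cells over 10. Of 19 tested co-receptors and other ligands, such as syndecans, neogenin and integrins, 1 rose and 9 fell in LIGHT cells and 4 rose and 10 fell in NC cells, at medians of -0.52 and -0.34. Over the 10 libraries 2 of 20 rose and 10 fell in LIGHT cells and 4 rose and 12 fell in NC cells. Sdc1, a syndecan that carries heparan sulfate, fell in both lines (-0.71 ± 0.06 in LIGHT cells, adjusted p = 3.5e-07, and -0.79 ± 0.06 in NC cells, adjusted p = 1.08e-07). Neo1, the netrin receptor neogenin, fell in NC cells (-0.92 ± 0.10, adjusted p = 6.13e-06). No difference of its change between the lines was called by the interaction test (0.40 ± 0.15, adjusted p = 0.107). Of 5 vascular endothelial growth factor genes, whose products also bind neuropilins, Vegfa rose in both lines (1.26 ± 0.12 in LIGHT cells, adjusted p = 2.39e-06, and 1.71 ± 0.13 in NC cells, adjusted p = 1.21e-07) and so did Vegfb. Of the same 5 genes 2 fell in LIGHT cells, among them Figf (-1.34 ± 0.29, adjusted p = 0.00147), and 1 in NC cells, Vegfc (-1.28 ± 0.41, adjusted p = 0.0157), with list medians of -0.59 in LIGHT and -0.33 in NC cells. Over the 10 libraries 2 of the 5 rose and 2 fell in each line. Of 43 intracellular mediators of these receptors 10 rose and 21 fell in LIGHT cells and 11 rose and 21 fell in NC cells, and over the 10 libraries 12 of 44 rose and 23 fell in LIGHT cells and 13 rose and 23 fell in NC cells. Farp1, an exchange factor known to act with plexins of the A type, fell in LIGHT cells (-1.80 ± 0.10, adjusted p = 8.94e-09) and NC cells (-2.05 ± 0.10, adjusted p = 2.12e-09).

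Between the lines, these partner genes also depended on the 2 libraries. In LIGHT-Diff against NC-Diff as labelled the smallest adjusted p in the 3 lists was 0.913, and without the 2 libraries 8 of 20 co-receptors and other ligands were higher and 4 lower, with 31% of all genes called (14.6% higher, 16.4% lower). Of 44 mediators 13 were higher and 8 lower, and of 5 vascular endothelial growth factor genes 2 were higher and 1 lower. Flrt3 and Flrt2, ligands of Unc5 receptors, were higher in LIGHT-Diff (2.20 ± 0.18, adjusted p = 3.07e-08, and 0.91 ± 0.14, adjusted p = 6.07e-05), as was Sdc2 (1.12 ± 0.06, adjusted p = 4.11e-11). Vegfc (1.46 ± 0.12, adjusted p = 4.93e-08) and Figf (0.93 ± 0.09, adjusted p = 2.21e-07) were higher and Vegfa lower (-0.44 ± 0.07, adjusted p = 5.44e-05). Among mediators Dpysl3, a cytosolic transducer of semaphorin signals, was higher (0.74 ± 0.07, adjusted p = 8.03e-08) and Limk1, a kinase that acts on cofilin, lower (-0.93 ± 0.07, adjusted p = 5.12e-09).

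The other 16 guidance genes did not pass the low-count filter. They were 6 ligands (Ntn4, Sema3d, Sema4d, Sema4f, Sema5b and Slit1) and 10 receptors (Epha1, Epha6, Epha7, Epha8, Ephb1, Plxnc1, Robo1, Robo4, Unc5a and Unc5d), each with a mean of at most 0.061 FPKM. Sema5b had 15 counts in LIGHT-Diff and 0 in LIGHT-Undiff, so it was at least 5.05-fold higher in LIGHT-Diff, taking 3 counts over the group as the floor. In NC-Diff it had 15 counts, 10 of them in the library labelled NC-Diff 1, and 1 in NC-Undiff. Epha8 went the other way, with 0 counts in LIGHT-Diff against 19 in LIGHT-Undiff (at least 6.27-fold lower) and 0 in NC-Diff against 6 in NC-Undiff (at least 2.12-fold lower). Of the 48 genes that passed, 1 (Plxnb3) reached the cutoff in differentiated libraries alone and 2 (Robo3 and Sema6a) in undifferentiated ones alone. Over 12 libraries the filter asks for 3 libraries at its cutoff. Ntn5, Sema4a and Sema6b reached it in fewer undifferentiated libraries than that, and Efna2 and Efnb3 in fewer differentiated ones. These genes too passed only because of their level in a single stage.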

How the data were processed

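RNA was extracted with TRIzol and made into Illumina libraries, per the labels' protocols. The authors deposited 1 table per library with expected counts and FPKM per gene, per the file headers. Expected counts share reads that match several transcripts and can be fractional; 83.6% to 84.5% of listed values were whole. The deposited FPKM values are scaled to gene length and to the library's total. Build mm8 is named in the submitters' processing notes; the sources used here do not give aligner, counter or strand setting, so reads of near-identical or overlapping genes may be split. A gene missing from a library's table was read as 0, and no coordinates come from these tables.

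Expected counts were rounded and tested over all genes with edgeR 4.0.16 (R 4.3.3) by quasi-likelihood, with TMM scaling, filterByExpr (minimum count 10), 1 coefficient per group and Benjamini-Hochberg adjustment at 0.05, which every adjusted p refers to. SE is the log2 fold change over the root of F. CPM compares 1 gene between libraries and FPKM compares genes. Counting intervals and floors of 3 counts cover counting error only, since PCR copies are not independent molecules. Intervals of a log2 change were instead made from its SE with a normal multiplier, so they reflect spread between libraries. They are somewhat narrower than the F test of edgeR allows. For Ntn1 in LIGHT cells over 12 libraries the interval was 0.024 to 0.627, while the unadjusted p of edgeR was 0.0552. The script was checked on simulated data.

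The members, gene lists and tests were chosen with earlier results of these data known, including the 2 libraries that contradict their labels. Every guidance gene could be named. Values in every library are given for the 5 called genes with the smallest p in each contrast, with at least 5 CPM in the higher group, over 12 and over 10 libraries, and for the most abundant gene of each family. Sema3f was added to these after its values were seen, and so were the 4 promoters. From the other lists up to 3 genes with the smallest p were eligible. Tried as alternatives were RLE scaling, library totals, DESeq2 1.42.0, other low-count filters, unrounded counts, the contrast's groups alone, a replicate block and leaving out each library. The labels do not say whether replicate numbers pair the libraries.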

Additional observations from a re-analysis of the deposited data

Results flagged for a closer look

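The genes below are listed because their change with differentiation differed between the lines by the interaction test of edgeR (change in LIGHT cells minus change in NC cells, log2, adjusted p under 0.05). Over 12 libraries as labelled the difference was 1.03 for Efna5, 1.76 for Efnb3, 0.88 for Epha2 and -0.63 for Sema4b. Without the libraries labelled LIGHT-Diff 1 and NC-Diff 1, receptors had differences of 1.78 for Plxnb1, 0.96 for Epha2, 0.94 for Ephb2, 0.85 for Unc5c, 0.58 for Nrp1, 0.42 for Ephb4 and 0.32 for Plxna1. Ligands with a positive difference in these 10 libraries were Slit2 at 1.53, Efna5 at 1.13, Sema3c at 1.00, Sema5a at 0.88, Efnb2 at 0.84, Efna4 at 0.51 and Slit3 at 0.34. Negative differences were found for Sema4g at -1.38, Sema3g at -0.85, Sema4b at -0.64 and Sema6d at -0.41. The gap test for a single outlying sample needs at least 4 samples and was not applied to these groups of 3.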

How the results depend on the processing

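Leaving out the libraries labelled LIGHT-Diff 1 and NC-Diff 1 moved 3 of the 5 counts of called guidance genes by over 1.5 times. Between LIGHT-Undiff and NC-Undiff the count was 12 over all libraries, 32 without them (29 by DESeq2) and 28 in a fit of these groups alone. Between LIGHT-Diff and NC-Diff it was 0, and 28 without them (27 by DESeq2), and for the interaction 4, and 18 without them (18 by DESeq2). Leaving out each library in turn gave 31 to 38 calls for differentiation in LIGHT cells, 28 to 39 in NC cells, 5 to 21 between the undifferentiated lines, 0 to 0 between the differentiated lines and 3 to 6 for the interaction. Deviations of same-numbered libraries correlated from -0.618 (NC-Diff 1 with LIGHT-Diff 1) to 0.097, with 0 of 18 pairs over 0.1. Within a line, same-numbered libraries of the stages correlated at 0.036 to 0.097 and other-numbered ones at 0.006 or below. The check therefore cannot exclude pairing. A fit with the replicate block called 35, 33, 8, 0 and 3 genes in the same order of comparisons. Summed ligands were 102 FPKM-like units (TMM-scaled CPM per kilobase) in LIGHT-Undiff and 102 in NC-Undiff, lower than on the FPKM scale by more than 1 SD; the cause was not tested. Of 85 single calls over 12 libraries, 82 held with DESeq2, 85 with RLE scaling and 83 with library totals, which moved the median of all genes by -0.113 in NC cells. Over 2005 repeats of single results 1876 kept their direction and call, 129 lost the call and 0 reversed. Depth limits the 16 untested genes, where 3 counts are 0.152 CPM or more.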
